A study of Homo sapiens with 6 samples.

Results

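The genes described here encode structural proteins of the extracellular matrix: collagen chains, laminin chains, fibrillins, fibulins, elastin, thrombospondins, the lysyl oxidases that cross-link collagen and elastin, and the single genes COMP, SPARC, FN1, DCN, LUM and POSTN. The rule picks them by gene symbol, from probes whose platform annotation gives 1 symbol, and was written with earlier results of these data known. This gave 47 genes on 58 probes, of 8987 genes and 14080 probes on the array. Of the 47 genes, 23 encode collagen chains and 24 encode other matrix proteins. All 47 were measured at every harvest, 38 of them by 1 probe.

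The values come from 6 two-colour arrays of the human cell line GM00156 of the Coriell repository. On 5 arrays, RNA of cells given 100 µg/ml emetine for 10 h was set against RNA of cells kept for 10 h without emetine, and both cultures received 5 µg/ml actinomycin D before harvest at 0, 10 or 30 min or at 1 or 8 h. Emetine stops ribosomes on the mRNA and actinomycin D stops RNA synthesis. A ratio at any harvest holds both the difference built up over the 10 h before actinomycin D and any difference in decay after it. The remaining array, called self-self, carried RNA of emetine-treated 0 min cells in both channels, with no actinomycin D named in its labels. Each array stands alone, so array and harvest time cannot be told apart, and precision is limited by how few arrays there are. The labels do not say whether separate harvests came from separate cultures, and they name no tissue or cell type.

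A value here is a log2 ratio, on a zero set within each slide by housekeeping genes. The labels do not state which culture stands on top of the ratio, so values are called positive or negative and no direction of expression is given. A ratio holds no level, so a chain that these cells hardly make cannot be told from an expressed chain with an equal ratio, and fewer cells of a type cannot be told apart from less RNA per cell. The labels of the 0 min array conflict: by channel it compared treated with untreated RNA, but its text speaks of treated RNA in both channels. The 1 h array lacks the large positive values of the other harvests, and the highest ratio of any matrix gene there was 0.69. The spread of log2 ratios over probes, as a robust SD, was 0.44 at 0 min and 0.53 at 1 h. It was 0.91 at 10 min, 0.78 at 30 min and 0.87 at 8 h, against 0.12 on the self-self array.

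Collagens are secreted proteins whose chains wind around each other into rope-like helices, and they form most of the protein mass of connective tissue. Fibrillar collagens bear tension, collagen IV and laminins build the sheets called basement membranes, and fibrillins and elastin give tissue its recoil. Their chains are made and modified in the endoplasmic reticulum, and fibroblasts are the best known source. Collagen I mRNA is known as a long-lived message, whose lifetime depends in part on proteins that bind its untranslated regions.

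Upstream sequences of COMP, SPARC and COL6A3, which are among the matrix genes with the most negative means, are given first, because these genes share a side in the results. RefSeq promoter entries on GRCh38.p14 were found for 35 of the 47 genes. The lines show the last 120 bases before the annotated start of COMP (chr19:18791306-18791425, minus strand), SPARC (chr5:151686916-151687035, minus strand) and COL6A3 (chr2:237414165-237414284, minus strand). The last line shows the whole 126-base gap between the starts of COL4A1 and COL4A2 (chr13:110307158-110307283, plus strand), which lie head to head and are compared below. Capitals mark a motif found by letters.
COMP: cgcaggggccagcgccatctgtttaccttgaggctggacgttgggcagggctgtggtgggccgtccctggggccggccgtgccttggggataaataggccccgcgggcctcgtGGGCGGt
SPARC: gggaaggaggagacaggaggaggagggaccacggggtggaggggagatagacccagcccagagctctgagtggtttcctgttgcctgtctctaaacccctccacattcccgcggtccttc
COL6A3: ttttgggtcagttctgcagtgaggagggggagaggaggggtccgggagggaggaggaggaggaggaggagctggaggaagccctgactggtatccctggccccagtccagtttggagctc
COL4A1 and COL4A2 gap: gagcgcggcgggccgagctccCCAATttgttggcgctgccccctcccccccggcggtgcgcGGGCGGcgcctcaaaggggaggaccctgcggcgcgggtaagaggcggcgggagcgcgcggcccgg

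Motifs were searched in the 250 bases before each start, on both strands. Each matrix gene gave 1 window, while the background held every entry of the promoter set and was not limited to genes on the array. The letters GGGCGG, a GC box, stood in 23 of the 35 matrix promoters, and in 42.6% of all 35116 promoter windows of that length. CCAAT stood in 13 of the 35 and in 32.0% of all windows, and TATAA stood in 6 of the 35 and in 18.9% of all windows. TGANTCA, the site of AP-1 factors such as FOS and JUN, stood in 1 of the 35 and in 6.6% of all windows. Of the 35, 16 belong to genes whose mean passed on the negative side, as given below. Among these 16, GGGCGG stood in 10, CCAAT in 2, TATAA in 4 and TGANTCA in 1, and no difference was tested. The COMP window held 2 GC boxes, of which 1 lies in the bases shown, and the SPARC and COL6A3 windows held none of the motifs. The gap between COL4A1 and COL4A2 held 1 CCAAT and 1 GC box and was 80.2% G or C.

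Many matrix genes, COMP, COL1A1 and SPARC foremost, lay on the negative side over the harvests. By limma, with a mean over the 5 harvests fitted beside a slope on time, 22 of 47 matrix genes (46.8%) had a negative mean at an adjusted p under 0.05. The background was 25.3% of the 8748 genes tested. Means of single genes are given below ± SE of this fit (n = 5 harvests). On the positive side 5 matrix genes (10.6%) passed, against a background of 37.0%, and 20 passed on neither side. Without the 0 min array the counts were 22 negative and 4 positive, and without the 1 h array 20 and 6. The median mean log2 ratio was -0.27 over the matrix genes and 0.14 over all genes tested. A called mean of -1 or lower was found for 9 matrix genes, against 4.74% of all genes. Negative ratios at all 5 harvests were found for 17 matrix genes, against 25.4% of all genes, and positive ratios at all 5 for 5 matrix genes, against 37.8%.

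**Figure D1:**
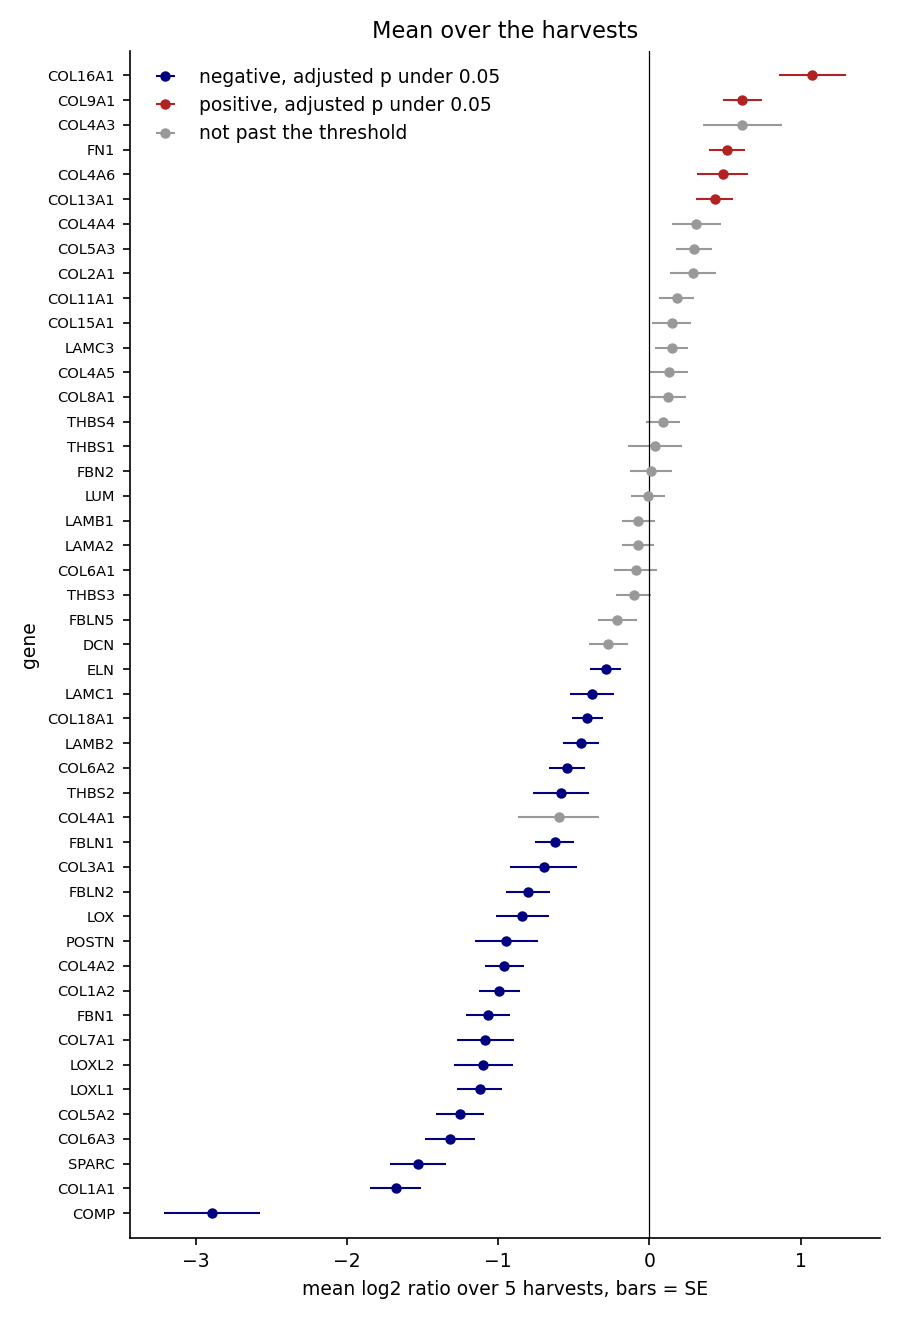
Mean log2 ratio over the 5 harvests for each of the 47 matrix genes (x axis, log2 units, bars are SE of the limma fit), sorted from the most positive at the top. Means past the adjusted p of 0.05 number 22 on the negative side, with COMP at -2.89, and 5 on the positive side, with COL16A1 at 1.08.

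The matrix genes lay near the middle of all genes at 0 min and further towards the negative side at the later harvests. Over the harvests from 0 min to 8 h their median log2 ratio was 0.09, -0.19, -0.24, -0.38 and -0.82, against 0.01 on the self-self array. Over all genes the medians at the same harvests were 0.06, 0.11, 0.16, 0.07 and 0.18, against 0.01 on the self-self array. Ranked among all genes of the same array, the median matrix gene stood at percentiles 52.7, 37.3, 31.5, 20.8 and 12.8 over the harvests, against 52.1 on the self-self array. The 0 min and self-self arrays were thus alike in this median rank, but not in single genes. Ratios of matrix genes ran from -1.13 to 2.44 at 0 min, against -0.25 to 0.49 on the self-self array. In the lowest 25% of genes stood 9 of the 47 at 0 min and 30 at 8 h, with 19, 20 and 27 at the harvests between, against 13 on the self-self array.

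**Figure D2:**
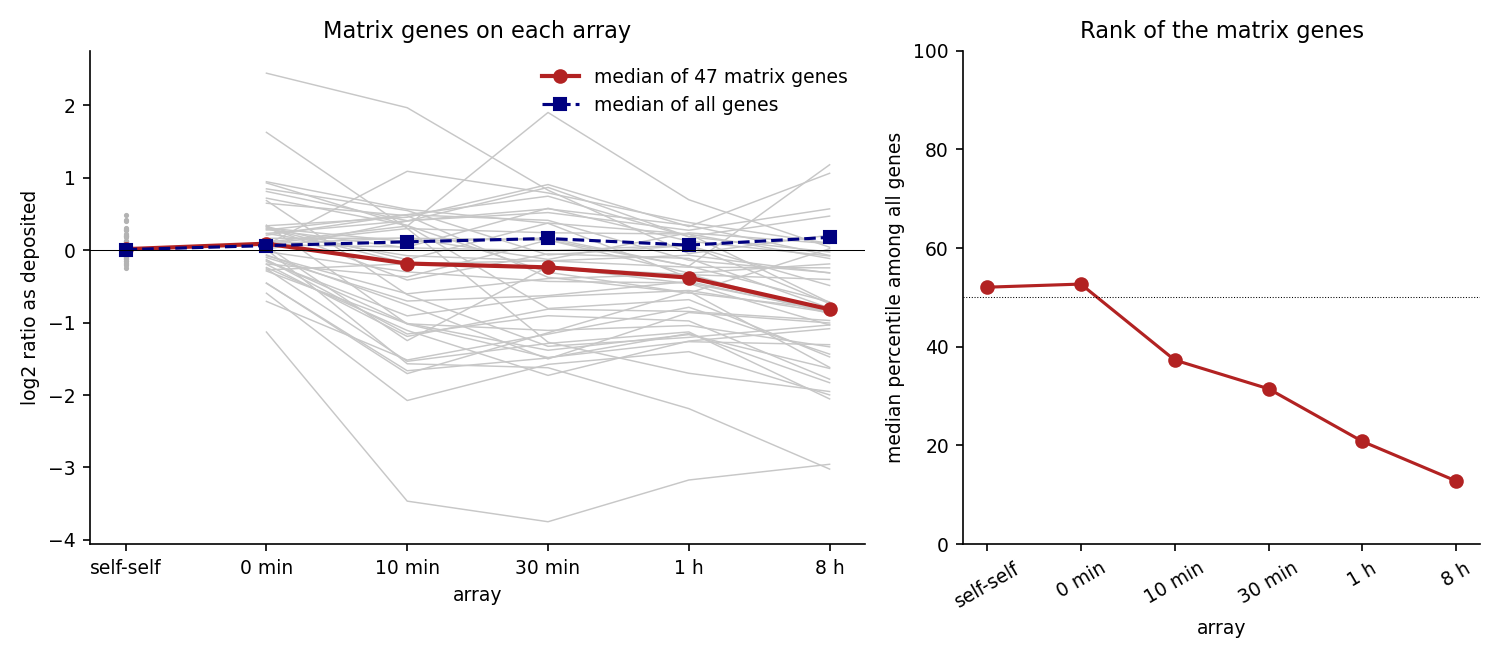
Left, log2 ratio (y axis) of the 47 matrix genes on each array (x axis), as grey lines over the harvests and grey dots on the self-self array, with the median of the matrix genes in red and of all genes in blue. Right, the median percentile of the matrix genes among all genes of the array, which was 52.7 at 0 min and 12.8 at 8 h.

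The self-self array gives the spread of a ratio between like RNAs, as the central 99% of its 8725 gene values, -0.28 to 0.43. At 0 min, 6 matrix genes lay below this range (background 21.4%) and 9 above it (background 20.3%). At 10 min the counts were 22 below (background 33.7%) and 8 above (background 35.9%), and at 30 min 23 below (background 29.8%) and 9 above (background 35.9%). The 1 h array had 27 below (background 26.7%) and 1 above (background 21.6%), and the 8 h array had 32 below (background 28.9%) and 4 above (background 36.6%). Only FN1, at 0.49, lay outside the range on the self-self array itself.

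**Figure D3:**
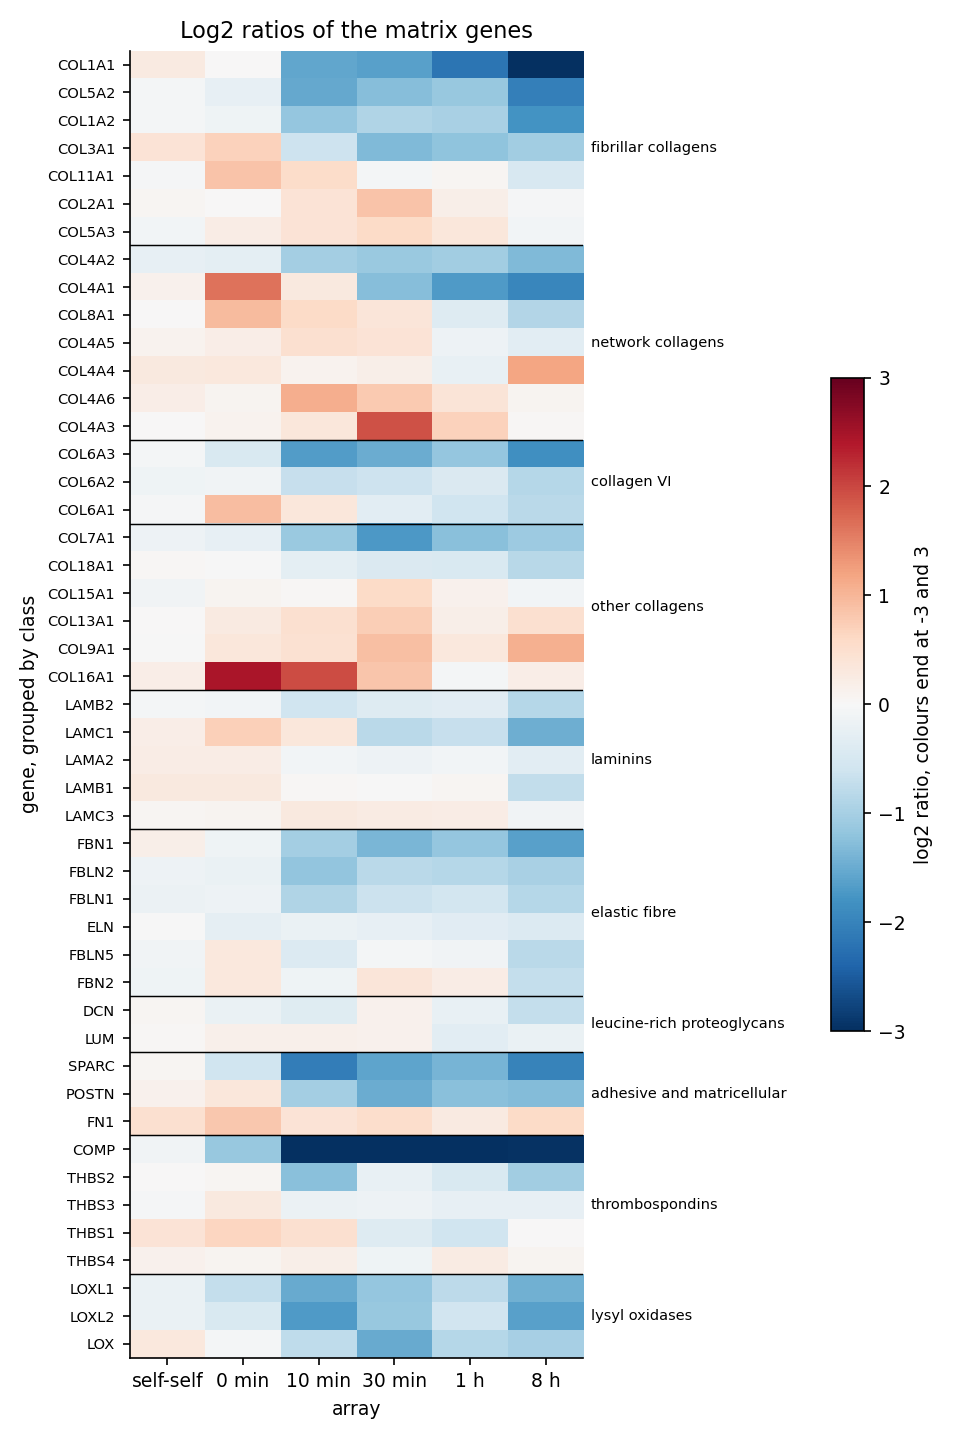
Log2 ratio of each matrix gene (rows, grouped by class and sorted by mean within it) on each array (columns), from blue for negative to red for positive, with colours ending at -3 and 3. COMP is past the blue end at 10 min (-3.46), 30 min (-3.75) and 1 h (-3.17), and the reds of COL16A1 (2.44), COL4A1 (1.62) and COL6A1 (0.93) stand at 0 min.

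Among the 7 chains of fibrillar collagens, 4 were called negative and 3 passed on neither side, beside 25.3% negative among all genes. COL1A1, the major chain of collagen I, had log2 ratios of 0.01 at 0 min, -1.57 after 10 min, -1.62 after 30 min, -2.19 after 1 h and -3.02 after 8 h, against 0.28 on the self-self array. The ratio was near 0 at the first harvest and lower at each later one, and its mean was -1.68 ± 0.17, with a limma adjusted p of 0.000462. COL1A2, the partner chain in the same molecule, had -0.13, -1.16, -0.91, -0.98 and -1.78 at the harvests in the same order, against -0.06 on the self-self array. It stood lower at each of the 4 later harvests than at 0 min, and its mean of -0.99 ± 0.14 passed (adjusted p = 0.000756). COL5A2, a chain of collagen V that helps start collagen I fibrils, had -0.26, -1.54, -1.29, -1.13 and -2.05, against -0.07 on the self-self array, with a mean of -1.25 ± 0.16. Like COL1A2 it was lowest at 8 h.

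COL3A1, the chain of collagen III of skin and vessels, began on the other side. Its log2 ratios were 0.68 at 0 min, -0.62 after 10 min, -1.33 after 30 min, -1.20 after 1 h and -1.03 after 8 h, against 0.42 on the self-self array, so it was above the self-self range at 0 min and below it at every later harvest. The mean of -0.70 ± 0.22 passed narrowly (adjusted p = 0.0258), and it no longer passed without the 10 min array (-0.72, adjusted p = 0.0645) or without the 30 min array (-0.54, adjusted p = 0.0754). The COL3A1 mean also missed the threshold with arrays centred and scaled to equal spread (adjusted p = 0.0814) and in a fit without the slope (adjusted p = 0.0583). COL3A1 and COL5A2 are neighbours on chromosome 2, 19151 bases apart.

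The remaining fibrillar chains are best known from cartilage or, for COL5A3, from a minor form of collagen V, and none passed. COL11A1 had 0.84, 0.55, -0.07, 0.06 and -0.49, against -0.05 on the self-self array, and its mean was 0.18 ± 0.12. COL2A1, the main collagen of cartilage, had 0.01, 0.40, 0.87, 0.18 and -0.03, against 0.07, with a mean of 0.29 ± 0.15. COL5A3 had 0.23, 0.40, 0.57, 0.34 and -0.07, against -0.09, with a mean of 0.29 ± 0.12. The means of these chains lay on the positive side and those of COL1A1, COL1A2, COL3A1 and COL5A2 on the negative side. In course COL11A1 did not stand apart, with a slope on time of -0.23, near the -0.24 of COL3A1. The test as reported did not separate the positive means from 0. COL5A3 did pass with its self-self value subtracted (0.38, adjusted p = 0.0252) and without the 8 h array (0.39, adjusted p = 0.0415). The difference between these sets of chains was not tested.

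The network collagens of basement membranes and vessel walls did not share a side. Of 7 chains, 1 was called negative, 1 positive and 5 neither, beside 25.3% negative and 37.0% positive among all genes. The median mean of these chains was 0.13. COL4A2 had -0.29 at 0 min, -1.02 after 10 min, -1.11 after 30 min, -1.04 after 1 h and -1.34 after 8 h, against -0.25 on the self-self array, with a mean of -0.96 ± 0.13 (adjusted p = 0.000631). COL4A1, whose chain joins that of COL4A2 in the commonest collagen IV molecule, had 1.62 at 0 min, 0.30 after 10 min, -1.27 after 30 min, -1.70 after 1 h and -1.95 after 8 h, against 0.12 on the self-self array. Its ratio was positive at the first 2 harvests and negative at the last 3, and the mean of -0.60 ± 0.27 did not pass (adjusted p = 0.0831). Without the 0 min array the COL4A1 mean was -1.16 and passed (adjusted p = 0.0116), while without the 8 h array it was -0.26 (adjusted p = 0.166) and without the 1 h array -0.32 (adjusted p = 0.258). The genes run in opposite directions on chromosome 13, COL4A1 at 110148963 to 110307157 and COL4A2 at 110307284 to 110513209, from the gap shown above. Their ratios lay on opposite sides at 0 and 10 min and on the same side from 30 min on.

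The other collagen IV genes are also paired head to head. COL4A3 and COL4A4, chains of kidney and lung basement membranes that lie 135 bases apart on chromosome 2, had means of 0.61 ± 0.26 and 0.31 ± 0.16, and neither passed. The COL4A3 mean rests largely on the 30 min array, at 1.90, and the COL4A4 mean on the 8 h array, at 1.18. COL4A3 passed without the 8 h array (0.76, adjusted p = 0.0341), and COL4A4 without the 1 h array (0.44, adjusted p = 0.0224). A further COL4A4 probe lacked a 10 min value and was left out, and with the repeated values kept as measured COL4A4 passed (0.45, adjusted p = 0.0432). On the X chromosome, 379 bases apart, COL4A6 passed and COL4A5 (mean 0.13 ± 0.12) did not. COL4A6 had 0.07, 1.09, 0.79, 0.38 and 0.09, against 0.20 on the self-self array, and a mean of 0.48 ± 0.17 with an adjusted p of 0.0341. It did not pass with its self-self value subtracted (0.28, adjusted p = 0.181) or after median-centring of the arrays (0.39, adjusted p = 0.0681). COL4A6 also missed the threshold without the 10 min array (0.33, adjusted p = 0.121) and without the 30 min array (0.41, adjusted p = 0.114). With arrays centred and scaled to equal spread it missed too (0.36, adjusted p = 0.052). COL8A1, a short-chain collagen of vessel walls, had 0.94, 0.56, 0.37, -0.38 and -0.88, against 0.02, a mean of 0.12 ± 0.12 made of values on both sides of 0.

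Collagen VI forms beaded filaments around cells from the chains of COL6A1, COL6A2 and COL6A3. COL6A3 had log2 ratios of -0.46 at 0 min, -1.67 after 10 min, -1.49 after 30 min, -1.15 after 1 h and -1.83 after 8 h, against -0.06 on the self-self array, and a mean of -1.32 ± 0.16 (adjusted p = 0.000543). All 5 harvests were below the self-self range. COL6A2, over 3 probes, had a mean of -0.54 ± 0.12, and each of its probes had a negative mean, between -0.80 and -0.26. COL6A1, over 3 probes, had 0.93, 0.34, -0.31, -0.59 and -0.82, against -0.03 on the self-self array, and a mean of -0.09 ± 0.14 that did not pass.

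The COL6A1 probes disagreed. The first had 2.62, 1.07, -0.43, -1.26 and -0.87 at the harvests in order, against 0.01 on the self-self array. The second had 0.04, -0.99, -1.01, -1.13 and -1.51, against -0.06, with a mean of -0.92 that passed a fit to probes (adjusted p = 0.00122). The third had 0.12, 0.94, 0.52, 0.62 and -0.07, against -0.02, with a mean of 0.43 that passed on the positive side (adjusted p = 0.0430). The first and second probes were both highest at 0 min and negative from 30 min on, with slopes of -0.59 and -0.23, and differed in level, while the third was positive from 0 min to 1 h. The gene mean of COL6A1 averages these courses, and which of them follows the transcript was not tested. The annotation used here is by gene, so no exon or untranslated region is given for a probe.

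Collagens of other kinds held most of the positive calls, 3 of their 6 genes, beside 2 negative calls. Among all genes 37.0% were called positive and 25.3% negative. COL16A1, a chain that joins fibril surfaces, had 2.44 at 0 min, 1.96 after 10 min, 0.83 after 30 min, -0.05 after 1 h and 0.21 after 8 h, against 0.19 on the self-self array. Its mean of 1.08 ± 0.22 was the highest of all 47 matrix genes (adjusted p = 0.00384). The ratio was high at the first harvests and near 0 at 1 and 8 h, and without the 0 min array the mean was 0.74 and missed the threshold (adjusted p = 0.0502).

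COL9A1, a cartilage collagen, had 0.34, 0.45, 0.90, 0.32 and 1.06, against -0.01 on the self-self array. Its mean was 0.62 ± 0.13 (adjusted p = 0.0041), and both of its probes passed, at 0.65 and 0.58. COL13A1, a collagen anchored in the cell membrane, had 0.28, 0.49, 0.74, 0.19 and 0.47, against 0.01, with a mean of 0.43 ± 0.12 (adjusted p = 0.0159). Without the 30 min array COL13A1 had 0.36 and did not pass (adjusted p = 0.0768).

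COL7A1, which forms the fibrils that anchor the epidermis, was on the other side. It had -0.24, -1.11, -1.73, -1.26 and -1.08, against -0.15 on the self-self array, and a mean of -1.08 ± 0.19 (adjusted p = 0.00182), with its lowest value at 30 min. COL18A1, a basement membrane collagen that gives rise to endostatin, had a mean of -0.41 ± 0.10 and passed, and the related COL15A1 had 0.15 ± 0.13 and did not. Without the 8 h array COL18A1 had -0.30 and missed the threshold (adjusted p = 0.0802).

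COMP, the cartilage oligomeric matrix protein and a member of the thrombospondin family, had the most negative mean of the matrix genes. Its log2 ratios were -1.13 at 0 min, -3.46 after 10 min, -3.75 after 30 min, -3.17 after 1 h and -2.96 after 8 h, against -0.10 on the self-self array. It was below the self-self range at every harvest, 0 min included, and stayed near -3 or lower from 10 min on. The mean of -2.89 ± 0.32 ranked COMP at place 2 from the bottom of all 8748 genes (adjusted p = 0.000462). The classical thrombospondins were less extreme. THBS2 passed with a mean of -0.58 ± 0.18, but not without the 8 h array (-0.47, adjusted p = 0.102). THBS1, THBS3 and THBS4 had means between -0.10 and 0.09 and did not pass.

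Among adhesive and matricellular proteins, SPARC and POSTN were negative and FN1 positive. SPARC, a collagen-binding glycoprotein also called osteonectin, had -0.59 at 0 min, -2.08 after 10 min, -1.58 after 30 min, -1.40 after 1 h and -2.00 after 8 h, against 0.06 on the self-self array. All 5 harvests lay below the self-self range, and the mean was -1.53 ± 0.18 (adjusted p = 0.000517). POSTN, or periostin, had 0.34, -1.02, -1.48, -1.26 and -1.31, against 0.13, so it was positive at 0 min and below -1 at each later harvest, with a mean of -0.95 ± 0.21. FN1, fibronectin, the adhesive protein that cells grip through integrins, had 0.81, 0.41, 0.52, 0.27 and 0.57, against 0.49. Its mean of 0.51 ± 0.12 passed (adjusted p = 0.00659), but the self-self array, which holds no such comparison, gave nearly the same value, and after subtraction of it the mean was 0.03 (adjusted p = 0.853).

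All 3 lysyl oxidase genes, whose enzymes cross-link collagen and elastin, were called negative, beside 25.3% of all genes. LOXL1 had -0.71, -1.52, -1.16, -0.79 and -1.44, against -0.19 on the self-self array, with a mean of -1.12 ± 0.15. LOXL2 had -0.45, -1.70, -1.14, -0.57 and -1.62, against -0.21, with a mean of -1.10 ± 0.19. Both were below the self-self range at every harvest and closest to 0 at 0 min and 1 h, the harvests whose arrays had the smallest spread. LOX, the founding member, had a mean of -0.84 ± 0.17 and its lowest value, -1.50, at 30 min.

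Elastic fibre genes were called negative in 4 of 6 cases, beside 25.3% of all genes. FBN1, the main fibrillin of microfibrils and the gene of Marfan syndrome, had -0.14, -1.01, -1.38, -1.17 and -1.63, against 0.18 on the self-self array, with a mean of -1.07 ± 0.14 (adjusted p = 0.00067). FBN2, its mainly foetal relative, had 0.01 ± 0.14 and did not pass. The fibulins FBLN2 (-0.80 ± 0.15) and FBLN1 (-0.63 ± 0.13) passed, and FBLN5 (-0.21 ± 0.13) did not, except without the 0 min and 1 h arrays together (-0.42, adjusted p = 0.0466). ELN, elastin, had -0.27, -0.19, -0.24, -0.34 and -0.41 over 2 probes, with a self-self value near 0, and its mean of -0.29 ± 0.10 passed narrowly (adjusted p = 0.0392). Its probes lay on both sides. The first had 0.09, 0.83, 0.67, 0.22 and 0.00, a mean of 0.36 that did not pass, and the second -0.64, -1.21, -1.15, -0.89 and -0.82, a mean of -0.94 that did (adjusted p = 0.000725). The ELN gene mean no longer passed once 1 array was left out, whichever it was, at adjusted p values of 0.0537 to 0.118.

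Laminins are cross-shaped proteins built of an alpha, a beta and a gamma chain. LAMB2 (-0.45 ± 0.12, adjusted p = 0.0109) and LAMC1 were called negative, and LAMA2, LAMB1 and LAMC3, with means between -0.08 and 0.15, were not called. With the self-self value subtracted, LAMA2 (-0.30, adjusted p = 0.0399) and LAMB1 (-0.36, adjusted p = 0.0257) passed. LAMC1, the gamma chain of most laminins, had 0.72, 0.34, -0.81, -0.68 and -1.47, against 0.19 on the self-self array. It was positive at the first 2 harvests and lowest at 8 h, and the mean of -0.38 ± 0.15 was at the edge of the threshold (adjusted p = 0.0491). Without the 8 h array the LAMC1 mean was -0.11 (adjusted p = 0.566), without the 30 min array -0.28 (adjusted p = 0.153) and without the 1 h array -0.31 (adjusted p = 0.130), and the LAMB2 mean without the 8 h array was -0.35 (adjusted p = 0.0693). The leucine-rich proteoglycans DCN (-0.27 ± 0.13) and LUM (-0.01 ± 0.11), which coat collagen fibrils and lie 28989 bases apart on chromosome 12, did not pass. DCN passed with each array centred on its median (-0.37, adjusted p = 0.0327).

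The slope of the ratio over time, per doubling of (1 + min / 10), was negative for 43 of 47 matrix genes and for 47.6% of all genes. Its median was -0.12 over the matrix genes and 0.01 over all genes. No matrix gene passed an adjusted p of 0.05, against a background of 0.0114%, or 1 gene. Unadjusted p-values under 0.05 were reached by 13 of the 47 matrix genes and by 15.0% of all genes. Lower ratios at 8 h than at 0 min were found for 42 matrix genes, against 45.0% of all genes. For 32 matrix genes the highest of the 5 harvests was 0 min, against 19.7% of genes, and for 27 the lowest was 8 h, against 21.4%. The 0 min array had the smallest spread of the 5 harvests, and the part of array spread in these counts and slopes was not tested.

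The smallest slope p-values belonged to COL1A1 (slope -0.48, SE 0.09), COL8A1 (-0.33, SE 0.06), LAMC1 (-0.39, SE 0.08) and COL4A1 (-0.61, SE 0.14). Their adjusted p-values by limma were 0.0753, 0.0753, 0.0875 and 0.114. Without the 1 h array these 4 genes, COL16A1 and COL6A1 passed, at adjusted p of 0.0118 to 0.0431, against 5.91% of all genes. Leaving out any other single array gave 0 calls among the matrix genes, as with all arrays. Without the 8 h array the slope was negative for 34 matrix genes, against 50.4% of all genes.

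**Figure D4:**
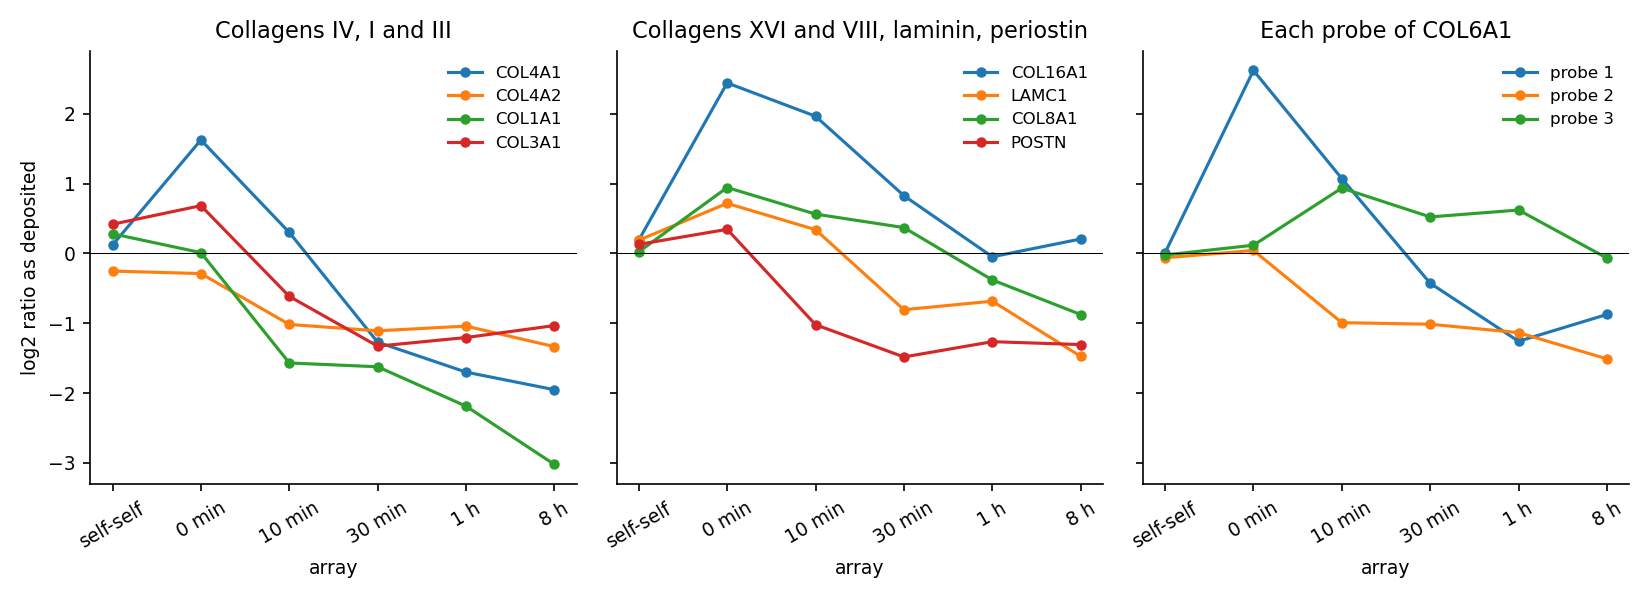
Log2 ratio (y axis) on each array (x axis) for matrix genes named in the text, 1 line per gene, with each probe of COL6A1 at the right. COL4A1 stands at 1.62 at 0 min and -1.95 at 8 h, while COL4A2 stands at -0.29 and -1.34, and 1 COL6A1 probe stands at 2.62 at 0 min.

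The enzymes and chaperones that build collagen were examined beside the structural genes, as a list of 24 genes of which 19 were measured. Of these, 14 were called negative, 3 positive and 2 neither, beside 25.3% negative and 37.0% positive among all genes. The median mean was -0.75, against -0.27 over the matrix genes and 0.14 over all genes. The lowest were P4HA2 at -1.72, a prolyl 4-hydroxylase subunit, PLOD2 at -1.47, a lysyl hydroxylase, and PCOLCE2 at -1.46, an enhancer of procollagen cleavage. P3H4 (-1.35), a partner of the prolyl 3-hydroxylase P3H3, and CRTAP (-1.13), a partner of P3H1, followed. The list also holds SPARCL1 (-0.75), a relative of SPARC that is not a processing enzyme. P4HA2 had -0.72, -2.26, -1.91, -1.49 and -2.23 at the harvests in order, against -0.09 on the self-self array. P4HB, the protein that pairs with P4HA2 in the same enzyme, was on the positive side with a mean of 0.35. The procollagen peptidase ADAMTS3 (0.47) and the lysyl hydroxylase PLOD3 (0.30) were the other positive calls. Median-centring of the arrays gave 1 positive call in this list.

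**Figure D5:**
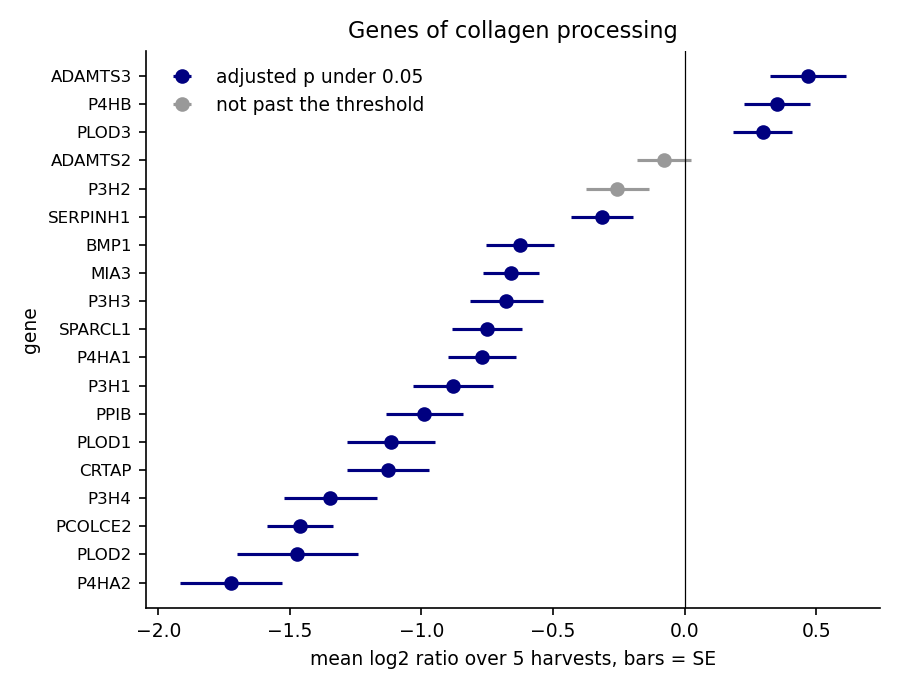
Mean log2 ratio over the 5 harvests for the 19 measured genes of collagen processing (x axis, log2 units, bars are SE of the limma fit), sorted from the most positive at the top. Blue marks an adjusted p under 0.05, with 14 genes on the negative side, P4HA2 lowest at -1.72, and 3 on the positive side.

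Other matrix proteins, a list of 44 genes with 33 measured, had 15 negative and 7 positive calls, beside 25.3% and 37.0% of all genes, and a median of -0.26. TGFBI (-1.58), a collagen-binding protein, LTBP2 (-1.25), of microfibrils, the basement membrane linker NID1 (-1.06) and the proteoglycan SPOCK1 (-1.04) were the most negative. CCN1, a matricellular protein known as an immediate-early gene, was the most positive at 1.72. Receptors for matrix had 8 negative calls and 1 positive call among 19 measured genes, beside 25.3% and 37.0% of all genes, and a median of -0.12. ITGA2, the integrin chain that binds collagen I, was lowest at -2.12, followed by ITGA3 (-0.90), ITGB5 (-0.86), ITGA6 (-0.72) and ITGA5 (-0.70). The collagen receptor kinase DDR2 was the positive call at 0.45, and was below the threshold without the 0 min array.

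TGF-beta is the best known inducer of collagen genes. Of 17 measured genes of its signalling list, 11 were called positive and 3 negative, beside 37.0% positive and 25.3% negative among all genes, with a median of 0.52. The largest were the repressor SKIL (2.92), TGIF1 (1.86), the inhibitory SMAD7 (1.79), the ligand TGFB2 (1.64) and SMAD3 (1.58). Immediate-early genes, whose short-lived mRNAs are known to build up when translation is blocked, had 9 positive calls among 10 measured genes, beside 37.0% of all genes, and a median of 3.21. The medians of the matrix genes and of the immediate-early genes thus lay on opposite sides of 0.

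Markers of other cell types were read as ratios only, since no level is given that would show which cells were present. Epithelial markers had 1 negative and 2 positive calls of 9 measured genes (median 0.03), and lymphocyte markers 1 positive call of 9 (median 0.16). Endothelial markers had 2 negative and 1 positive of 7 (median -0.04), and smooth muscle markers 3 negative and 1 positive of 6 (median -0.11). Among all genes 25.3% were called negative and 37.0% positive. The markers' part in the matrix gene ratios was not tested.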

How the data were processed

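The deposited table holds 1 log2 ratio per probe and array for 14080 probes and 6 arrays. Per the labels' protocols, mRNA of emetine-treated cells carried Cy3 and mRNA of untreated cells Cy5, spot intensities were background-subtracted and divided, each slide was normalised on housekeeping genes with ratio statistics, and ratios with a quality value below 0.5 were discarded. The software used for this is not given in the sources used here. That the scale is log2 was worked out from the numbers: raised as powers of 2, 99.5% to 100.0% of an array's entries fell on steps of 1 / 10000 (tolerance 0.05 of a step).

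On every array 333 to 534 probes carry an identical number, and these entries were treated as not measured. Platform annotation gave the symbols, brought up to date with the RefSeq gene table, which 11282 of 11304 single-symbol probes matched. Probes of a gene were averaged. In R 4.3.3, limma 3.58.1 was fitted to 8748 genes on the 5 harvest arrays, with an intercept (the mean) and time as centred log2(1 + min / 10), leaving 3 residual degrees of freedom, followed by empirical Bayes moderation, two-sided tests and Benjamini-Hochberg adjustment over all genes. The p-values measure only the spread around a line over 5 arrays. The fit was also run on simulated independent noise with added shifts, which held no array-wide effects and so says nothing about such effects here. Alternatives covered centring, scaling, the repeated values, probes, the self-self array and leaving out each array.

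The gene lists, like the members, were chosen with earlier results of these data known. Values on every array are printed for the 10 members with the largest mean in size, all fibrillar chains, members whose probes lie on both sides, and positive calls. For the slope the 4 members with the smallest p are named, and from each list up to 5 genes with the largest mean in size. The per-array values of COL4A2, POSTN, LAMC1, COL8A1, COL4A1 and P4HA2, COL16A1 and COL6A1 beside the slopes, SPARCL1, P4HB, ADAMTS3, PLOD3 and DDR2 beside the lists, the other members named singly, and the COL4A1 and COL4A2 gap sequence were chosen after their values were seen.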

Additional observations from a re-analysis of the deposited data

Results flagged for a closer look

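Of the 47 matrix genes, 6 lay above the self-self range at 0 min and below it at 8 h, as did 0.674% of all genes (59 genes). These differences between harvests, 8 h minus 0 min, have no test of their own, since each harvest is 1 array, and the slope over all 5 harvests passed for none of them. The difference was -3.58 log2 units for COL4A1, -2.19 for the laminin chain LAMC1 and -1.82 for COL8A1. It was -1.74 for COL6A1, whose probes disagree, -1.72 for COL3A1 and -1.33 for COL11A1. COL6A1 stood above the range at 0 min through its first probe alone (2.62), while its others had 0.04 and 0.12. COL3A1, at 0.68 at 0 min, already had 0.42 on the self-self array. The labels of the 0 min array, on which each of these differences rests, conflict about its channels. By its values that array was not like the self-self array, with a spread of 0.44 against 0.12. The immediate-early genes ATF3 and FOS had 4.88 and 3.55 on it, against 0.06 and -0.14 on the self-self array. FOSB and MYC, at 0.16 and 0.34, lay inside the self-self range. The part of the 0 min array in the differences was not tested.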

How the results depend on the processing

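Over the alternatives run, 17 to 25 matrix genes were called negative, against 22 as reported, with the fewest without the 8 h array, and no matrix gene mean turned its sign past the threshold. The member median lay between -0.37, with arrays centred on their medians, and -0.11, without the 8 h array. Leaving out 1 array at a time gave 3 to 7 positive calls among matrix genes (3 without the 30 min array), 0 to 6 slope calls (6 without the 1 h array), 0 to 2 positive calls in collagen processing, 0 to 2 in matrix receptors (0 without the 0 min array, 2 without the 1 h array), and 0 to 3 negative calls in TGF-beta signalling (0 without the 30 min array). Collagen processing had 1 positive call with arrays centred and 1 with arrays centred and scaled to equal spread. Matrix receptors had 2 positive calls with the repeated values kept, and 2 without the 0 min and 1 h arrays together, an alternative chosen after seeing the data. At 0, 10 and 30 min and at 1 and 8 h, a limit of 1 log2 unit in place of the self-self range left 3, 16, 15, 11 and 19 matrix genes outside it, against 15, 30, 32, 28 and 36 as reported. With arrays centred and scaled to equal spread the counts were 3, 2, 2, 7 and 5, since this scaling widens the self-self array to the spread of the harvests. The share of all genes outside was computed for neither alternative, so these counts do not compare the matrix genes with all genes. No paired analysis was possible because each harvest has 1 array. Causes of the other shifts were not tested. The harvests have no replicates, the numerator of the ratio is unknown, and no intensities were used here, so how far each spot stood above background is unknown.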
